A study of Homo sapiens with 6 samples.

Results

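The genes examined here encode the guidance molecules of the ephrin, semaphorin, netrin and slit systems together with their receptors. Members were chosen by symbol among protein-coding genes of the count table: EPHA, EPHB, EFNA and EFNB genes, every SEMA and PLXN gene, NRP1, NRP2, NTN1, NTN4, DCC, UNC5A to UNC5D, SLIT1 to SLIT3 and ROBO1 to ROBO4. This gave 67 of the 57820 genes in the table. Transcripts had been counted by RNA-seq in 6 libraries from J82 cells, which are an established line from a human bladder carcinoma, grown in medium with serum. Vector control cells gave 3 libraries and cells labelled as FOXC1 knockout (KO) gave the other 3, for which a lentiviral CRISPR/Cas9 vector (lentiCRISPR v2) had been used against FOXC1, a forkhead transcription factor gene. Per the study's methods the cells had been selected with puromycin, KO clones had been checked by Western blot, and whether the KO libraries came from 1 clone or several, or the replicates from separate cultures, was not given in the sources used here. The p-values below therefore measure the spread between these libraries, which may be technical.

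Guidance molecules are short-range and secreted cues that steer growing axons, and the same ligands and receptors are used by epithelial, endothelial and tumour cells to sort, attach, repel and migrate. Ephrins are membrane-bound ligands of the Eph receptor tyrosine kinases, with a lipid anchor in the A class and a transmembrane segment in the B class, and signal in both directions across a cell contact. Semaphorins act through plexins, which regulate small GTPases, and the secreted class 3 semaphorins mostly need a neuropilin as co-receptor. Netrins bind DCC and UNC5 receptors, and slits bind robo receptors.

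The library totals ranged from 18408134 to 25350908 counts. The FOXC1 transcript did not fall in libraries labelled FOXC1 KO, with a CPM value of 18.2 ± 1.21 (SD, n = 3) in control and 22.5 ± 1.5 in KO libraries. It was higher in every KO library than in every control library (log2 fold change 0.30, edgeR adjusted p 0.0127, or 0.0827 without control replicate 2 and 0.0784 without KO replicate 1), under the fold change threshold of 1.3 used here, so it does not check the labels and every direction given here is between libraries as labelled. CPM values are read counts scaled to a common library size after normalization. Of 6 epithelial markers, summed at 3020 to 3841 CPM in control and 2369 to 2648 CPM in KO libraries, KRT7, KRT8, KRT18 and KRT19 were abundant, while CDH1 had at most 3 counts in a library. The uroplakins that define luminal urothelium were absent or nearly so, with UPK3A at 0 and at most 5 counts for UPK2, and the 7 luminal markers summed to 158 to 161 and 116 to 119 CPM, mostly PPARG and GATA3. Of 5 basal markers (1793 to 2009 and 2324 to 2601 CPM) CD44 carried the sum, and KRT6A was at 0 and KRT5 and KRT14 at no more than 1 count. Markers of other cell types were at low levels but moved with the labels. Their summed level was 5.48 to 7.23 CPM in control and 7.93 to 10.8 CPM in KO libraries for 6 neuronal markers (STMN2 and ELAVL4 at 0), 0.819 to 1.07 and 2.62 to 2.89 CPM for 5 Schwann and glial markers (S100B at 0), 0.134 to 0.314 and 1.03 to 1.49 CPM for 5 endothelial markers, and 3.85 to 4.32 and 5.51 to 6.63 CPM for 5 leukocyte markers (CD3E and MS4A1 at 0). Their part in the results was not tested, and in bulk RNA fewer cells of a type and less RNA per cell cannot be told apart.

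To determine which guidance genes differed between the groups, the libraries labelled FOXC1 KO were compared with the control libraries using the quasi-likelihood test of edgeR across all genes. A gene was called when its Benjamini-Hochberg adjusted p was under 0.05 and its fold change over 1.3. In order of p, the leading rises were those of SEMA7A, ROBO1, SLIT3, EPHB2, EPHB1, SLIT2, PLXNA1, SEMA6B and EPHB4, and the leading falls those of SEMA4D, PLXNA2 and SEMA3D. Of the 67 members, 51 had enough counts to be tested and 21 were called, which is 41.2% of the tested members beside 16.0% of all 15647 tested genes and 16.4% of tested protein-coding genes. Higher in the libraries labelled KO were 12 members (23.5%, beside 7.57% of all tested genes), and lower were 9 (17.6%, beside 8.39%). The median log2 fold change of the tested members was 0.076, and that of all tested genes was -0.00084. Counting by adjusted p alone, 27 of the 51 tested members passed, beside 4605 of all 15647 tested genes (29.4%). With a fold change over 2 there were 6 of the 51, beside 637 of the 15647 (4.07%). EPHA1 and EPHA3 were tested only because of the group in which they were higher, and neither was called. Without a filter on low counts, 20 of 63 members with any count were called, beside 2588 of 32156 genes (8.05%). DESeq2 called 18 of the 52 members it tested, all of them among the 21, beside 2042 of the 17225 genes it tested (11.9%). Control and KO values were fully separated for 20 of the 21 called members, EPHA7 being the exception, beside 2443 of all 2497 called genes. Separation thus adds little to a call. Of the 51 tested members 31 were separated (60.8%), beside 41.3% of all tested genes. With 3 libraries against 3, an exact permutation test of a single gene cannot go below p = 0.1.

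**Figure D1:**
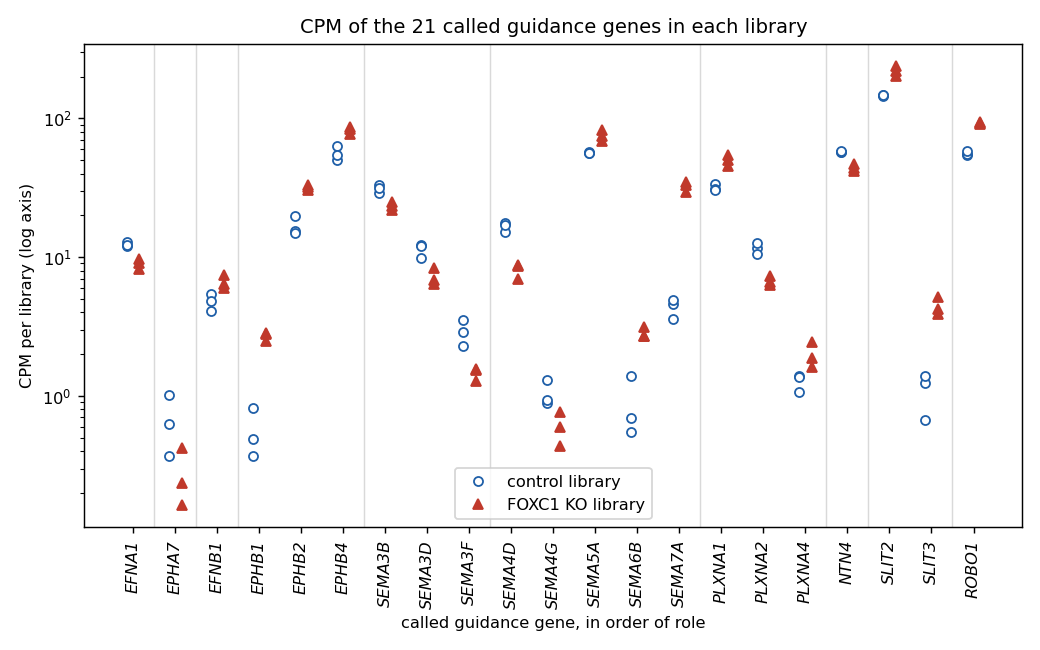
Each called guidance gene is shown by its CPM in the 3 control libraries (open circles) and the 3 libraries labelled FOXC1 KO (triangles) on a log axis, with grey lines between roles. SEMA7A lies between 3.60 and 4.87 CPM in control and between 29.3 and 35.0 CPM in KO libraries, and the groups overlap only for EPHA7.

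**Figure D2:**
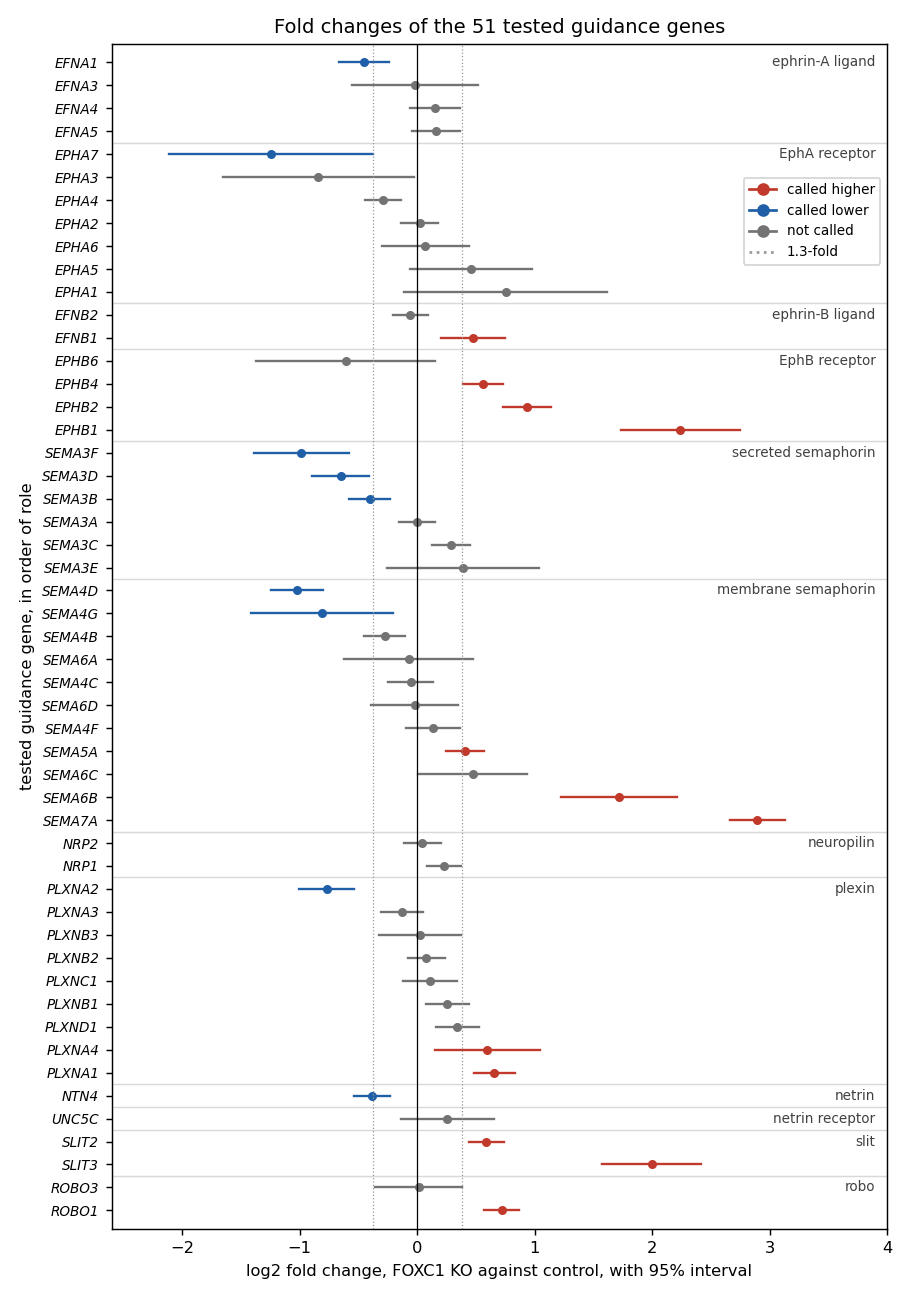
The log2 fold change of each of the 51 tested members is drawn with its 95% interval from the edgeR fit, positive values being higher in the libraries labelled FOXC1 KO, and dotted lines mark a 1.3-fold change. The 12 members called higher reach 2.89 for SEMA7A, and the 9 called lower reach -1.24 for EPHA7.

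The sequence just upstream of the start site is shown for the members at the ends of this range, and for the called members whose promoter window holds the forkhead core, since FOXC1 belongs to the forkhead family. The windows are the 250 bases before the RefSeq gene start (build GRCh38.p14), which need not be the start used in J82 cells, and 58 of the 67 members had an entry. Each is printed in lower case with capitals for the forkhead core TAAACA, the GC box GGGCGG and the TATA box TATAAA, searched on both strands, where GC boxes may overlap each other. SEMA7A (chr15:74433959-74434208 on the minus strand) and EPHB1 (chr3:134795010-134795259 on the plus strand) were the highest, and SEMA4D (chr9:89495657-89495906 on the minus strand) and SEMA3F (chr3:50154808-50155057 on the plus strand) the lowest, among called members with a mean of at least 1 CPM. NTN4 (chr12:95791156-95791405 on the minus strand), ROBO1 (chr3:79767999-79768248 on the minus strand) and SEMA3D (chr7:85187057-85187306 on the minus strand) hold the forkhead core.
SEMA7A: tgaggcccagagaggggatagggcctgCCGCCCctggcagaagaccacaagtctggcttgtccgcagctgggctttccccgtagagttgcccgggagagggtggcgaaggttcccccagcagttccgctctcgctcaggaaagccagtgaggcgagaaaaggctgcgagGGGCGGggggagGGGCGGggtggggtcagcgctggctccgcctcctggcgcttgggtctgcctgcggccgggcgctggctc
EPHB1: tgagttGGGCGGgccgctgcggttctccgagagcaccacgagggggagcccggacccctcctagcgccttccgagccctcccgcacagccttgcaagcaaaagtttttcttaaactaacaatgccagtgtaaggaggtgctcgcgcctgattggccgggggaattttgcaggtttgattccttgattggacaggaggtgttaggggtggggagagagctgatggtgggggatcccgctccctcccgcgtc
SEMA4D: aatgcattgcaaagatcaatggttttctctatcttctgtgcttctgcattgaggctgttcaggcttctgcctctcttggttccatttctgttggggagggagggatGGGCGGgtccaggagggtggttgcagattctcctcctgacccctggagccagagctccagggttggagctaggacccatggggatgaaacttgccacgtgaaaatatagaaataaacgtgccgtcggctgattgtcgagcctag
SEMA3F: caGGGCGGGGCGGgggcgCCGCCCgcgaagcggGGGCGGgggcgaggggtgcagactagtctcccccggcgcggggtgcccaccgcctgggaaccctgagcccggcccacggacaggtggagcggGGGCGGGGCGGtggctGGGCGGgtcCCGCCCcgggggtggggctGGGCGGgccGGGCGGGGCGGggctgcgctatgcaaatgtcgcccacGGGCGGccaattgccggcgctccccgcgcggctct
NTN4: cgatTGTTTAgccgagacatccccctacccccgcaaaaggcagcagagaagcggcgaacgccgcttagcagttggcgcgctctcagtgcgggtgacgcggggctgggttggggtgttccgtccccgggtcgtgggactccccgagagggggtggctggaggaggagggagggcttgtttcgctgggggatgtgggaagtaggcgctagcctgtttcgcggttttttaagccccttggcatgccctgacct
ROBO1: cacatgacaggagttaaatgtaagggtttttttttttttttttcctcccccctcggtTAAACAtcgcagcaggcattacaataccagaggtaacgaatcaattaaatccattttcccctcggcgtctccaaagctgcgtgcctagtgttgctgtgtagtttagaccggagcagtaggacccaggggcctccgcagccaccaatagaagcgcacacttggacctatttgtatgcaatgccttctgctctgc
SEMA3D: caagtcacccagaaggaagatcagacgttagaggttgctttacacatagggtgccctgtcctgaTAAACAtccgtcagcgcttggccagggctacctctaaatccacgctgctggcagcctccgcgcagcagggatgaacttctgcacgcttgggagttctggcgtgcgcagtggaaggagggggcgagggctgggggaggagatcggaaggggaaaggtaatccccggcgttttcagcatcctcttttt
The forkhead core was found in 3 of the 58 member windows (5.17%), beside 11.1% of 27305 RefSeq windows of the same length. Its first base is at -246 from the start of NTN4, on the reverse strand, at -193 from that of ROBO1 and at -186 from that of SEMA3D. Of these genes ROBO1 was higher and NTN4 and SEMA3D were lower in the libraries labelled KO. A GC box was found in 42 member windows (72.4%, beside 42.3% of all windows), with 12 copies in the SEMA3F window, which had a GC content of 82%. The TATA box was found in 1 member window, that of EFNB2 (1.72%, beside 11.1%). The median GC content was 65.0% over the member windows and 58.0% over all windows. A match of letters is a description and not a binding site.

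Ephrin-A ligands and EphA receptors were examined next. EFNA1, whose ligand is bound by most EphA receptors, had 12.9, 12 and 12.2 CPM in the control libraries 1 to 3 and 8.20, 9.75 and 9.05 CPM in the KO libraries 1 to 3. The groups did not overlap, and EFNA1 fell with a log2 fold change of -0.45 (standard error 0.10, edgeR adjusted p 0.00152). It lies on chromosome 1 (155100352 to 155107375, build GRCh37) near its paralogs EFNA4 and EFNA3, 58.3 and 40.3 kb away. EFNA4 (log2 fold change 0.15, 95% interval -0.06 to 0.37) and EFNA3 (-0.02, -0.55 to 0.52) did not pass the test, nor did EFNA5 (0.16, -0.04 to 0.36). EFNA2 had at most 1 count in a library.

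Among the 9 EphA receptors, EPHA2, a receptor of ephrin-A1 that is common in epithelial tumours, was by far the most abundant per kilobase of exon. It supplied 90.1% of the summed EphA level per kilobase of exon in control and 91.7% in KO libraries. EPHA2 had 318, 256 and 276 CPM in control and 296, 301 and 265 CPM in KO libraries, so the groups overlapped, and its log2 fold change of 0.02 had a 95% interval from -0.14 to 0.18. EPHA4, a receptor that binds both ephrin classes, had 52.0, 52.5 and 54.7 CPM in control and 45.3, 42.3 and 42.7 CPM in KO libraries. All KO values of EPHA4 lay below all control values, and its log2 fold change of -0.29 (standard error 0.076, edgeR adjusted p 0.00419) was under the fold change threshold. EPHA7 was the only EphA receptor called, with 14, 9 and 26 counts in control and 3, 6 and 10 counts in KO libraries. Its groups overlapped, and the log2 fold change of -1.24 (standard error 0.42, adjusted p 0.0262) was not past the test with DESeq2 (adjusted p 0.145), without KO replicate 1 (0.0962) or without KO replicate 2 (0.106). EPHA7 was tested in only 10 of the 13 alternative fits, and fell under the filter without control replicate 3, the library with 26 counts. EPHA6 (2.43 and 2.58 CPM in control and KO libraries) and EPHA5 (1.22 and 1.72 CPM) did not pass the test, although EPHA5 did without KO replicate 2 (log2 fold change 0.75, adjusted p 0.0262). EPHA10 had at most 11 counts in a library and EPHA8 had 0 in all libraries.

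Of the 4 tested EphB receptors, 3 were called higher in the libraries labelled KO (7.57% of all tested genes were) and 0 lower (8.39%). EPHB4, the receptor of ephrin-B2 known from arteries and veins, was the main member per kilobase of exon. It supplied 84.7% of the summed EphB level in control and 80.5% in KO libraries. EPHB4 had 63.6, 49.7 and 54.8 CPM in control and 83.2, 86.6 and 77.7 CPM in KO libraries. The groups stood apart, and the log2 fold change was 0.56 (standard error 0.083, edgeR adjusted p 5.35e-06). EPHB4 (chromosome 7, 100400187 to 100425145) overlaps SLC12A9 on the opposite strand, a gene with a log2 fold change of 0.28 (adjusted p 0.0266), and whether the counting used strand was not given in the sources used here.

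EPHB2 (chromosome 1, 23037332 to 23247993), a receptor that sorts cells at intestinal and neural boundaries, had 19.9, 15.4 and 14.9 CPM in control and 32.8, 32.1 and 30.7 CPM in KO libraries. Its level therefore rose 1.91-fold without overlap, with a log2 fold change of 0.93 (standard error 0.098, adjusted p 1.4e-08). EPHB1 (chromosome 3, 134514102 to 134979309) started from a low level and rose most. It had 11, 9 and 21 counts in control and 52, 70 and 59 counts in KO libraries, which is 0.561 ± 0.237 and 2.70 ± 0.171 CPM (SD, n = 3). The rise of EPHB1 was 4.73-fold (log2 fold change 2.24, SE 0.25, adjusted p 3.21e-08), and EPHB1 was called in each of the 12 alternative fits in which it was tested. EPHB6, which lacks kinase activity, had 0.647 and 0.408 CPM and did not pass the test (log2 fold change -0.61, 95% interval -1.37 to 0.15). EPHB3 had at most 4 counts in a library. The summed EphB level was 10.3 ± 1.31 in control and 15.9 ± 0.797 CPM per kilobase of exon in KO libraries (SD, n = 3), a description with no test.

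Of the ephrin-B ligands, EFNB1 was higher and the more abundant EFNB2 was not past the test. EFNB1 had 5.39, 4.09 and 4.79 CPM in control and 7.44, 6.42 and 6.03 CPM in KO libraries, and the KO libraries were higher throughout. Its log2 fold change of 0.47 (standard error 0.13, edgeR adjusted p 0.00777, 0.0384 with DESeq2) lost the call without control replicate 2 (adjusted p 0.0615) and without KO replicate 1 (0.0524). EFNB2 had 84.5, 78.7 and 84.1 CPM in control and 83.8, 76.9 and 77.0 CPM in KO libraries, a log2 fold change of -0.06 with a 95% interval from -0.21 to 0.09. EFNB2 made up 91.8% of the summed ephrin-B level per length in control and 88.6% in KO libraries. EFNB3 had at most 4 counts in a library.

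The secreted class 3 semaphorins, which act through neuropilins and plexins, had 3 members called lower (8.39% of all tested genes were) and 0 higher (7.57%) among 6 tested. SEMA3C, the most abundant of them per length, moved the other way below the fold change threshold. SEMA3F (chromosome 3, 50192478 to 50226508), a ligand of NRP2 that repels tumour and endothelial cells, had 3.52, 2.29 and 2.91 CPM in control and 1.58, 1.55 and 1.27 CPM in KO libraries. It fell 1.98-fold without overlap (log2 fold change -0.99, SE 0.20, adjusted p 0.00033). SEMA3F-AS1, an antisense gene that overlaps it, had a log2 fold change of -0.49 (adjusted p 0.277). SEMA3B (chromosome 3, 50304990 to 50314977) lies 78.5 kb from SEMA3F and is a candidate tumour suppressor of the same chromosome arm. SEMA3B had 32.8, 28.8 and 31.3 CPM in control and 25.2, 23.2 and 21.9 CPM in KO libraries. The fall of SEMA3B was small (log2 fold change -0.41, SE 0.087, adjusted p 0.000663), and its fold change was under the threshold on leaving out control replicate 1 (-0.37) or KO replicate 3 (-0.37).

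SEMA3D (chromosome 7, 84624869 to 84816372), which guides neural crest and endothelial cells, had 9.85, 12.3 and 12 CPM in control and 6.41, 6.90 and 8.37 CPM in KO libraries. The groups of SEMA3D did not overlap (log2 fold change -0.65, SE 0.12, adjusted p 0.000108). Its neighbour SEMA3A, 503 kb away and the founding class 3 semaphorin, had 71.0, 74.4 and 73.4 CPM in control and 68.8, 70.4 and 78.6 CPM in KO libraries. The log2 fold change of SEMA3A was -0.01, with a 95% interval from -0.16 to 0.15. SEMA3C had 192, 221 and 215 CPM in control and 255, 227 and 285 CPM in KO libraries, all KO values above all control values. Its log2 fold change was 0.29 (standard error 0.078, adjusted p 0.00593, or 0.0815 without KO replicate 3), a 1.22-fold change that was not called. Per kilobase of exon SEMA3C made up 69.2% of the summed class 3 level in control and 76.1% in KO libraries, whereas SEMA3F made up 1.21% and 0.551%. SEMA3E (0.621 and 0.812 CPM) did not pass the test, and SEMA3G had at most 1 count in a library.

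Among the membrane-bound semaphorins was SEMA7A, the tested member with the largest fold change. SEMA7A (ENSG00000138623.5, chromosome 15, 74701630 to 74726299, minus strand) encodes a semaphorin held by a lipid anchor, which binds plexin C1 and integrin beta 1 and acts on immune cells and axons. SEMA7A had 103, 88 and 124 counts in control and 608, 882 and 689 counts in KO libraries, or 4.59, 3.60 and 4.87 CPM and 33.0, 35.0 and 29.3 CPM. The lowest KO library was thus far above the highest control library. The rise was 7.44-fold, with a log2 fold change of 2.89 (standard error 0.11, edgeR adjusted p 1.06e-17) that ranged from 2.77 to 2.99 over 13 alternative fits. SEMA7A ranked 4 by p and 31 by fold change among the 1184 genes called higher. Its share of the summed level of membrane semaphorins per length was 5.62% in control and 30.3% in KO libraries. PLXNC1, which encodes its plexin receptor, had 7.20 ± 0.207 and 7.79 ± 0.374 CPM (SD, n = 3) and a log2 fold change of 0.11, with a 95% interval from -0.12 to 0.34.

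SEMA6B and SEMA5A were also higher. SEMA6B, a transmembrane ligand of plexins A2 and A4, had 31, 17 and 14 counts in control and 58, 68 and 64 counts in KO libraries. It rose 3.28-fold without overlap, from 0.876 ± 0.444 to 2.86 ± 0.257 CPM (SD, n = 3; log2 fold change 1.72, SE 0.24, adjusted p 2.16e-06). SEMA5A, a semaphorin with thrombospondin repeats that binds plexin B3, had 57.6, 56.0 and 56.4 CPM in control and 83.0, 74.3 and 68.5 CPM in KO libraries. Its log2 fold change of 0.41 (standard error 0.078, adjusted p 0.000179) was under the fold change threshold without KO replicate 1, the highest library (0.33).

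Class 4 semaphorins were lower or did not pass the test. SEMA4D (chromosome 9, 91975702 to 92113045), the ligand of plexin B1 also known as CD100, had 17.7, 15.1 and 17.1 CPM in control and 6.95, 8.76 and 8.67 CPM in KO libraries. SEMA4D fell 2.03-fold (log2 fold change -1.02, SE 0.11, adjusted p 1.88e-08), and the groups lay far apart. SEMA4G had only 20, 23 and 33 counts in control and 11, 11 and 18 counts in KO libraries, and it overlaps the much more abundant MRPL43 (47.6 CPM in control) on the opposite strand. Its log2 fold change of -0.81 (standard error 0.30, adjusted p 0.0381) was not past the test with DESeq2 (adjusted p 0.21), with no filter on low counts (0.0598), or without control replicate 3 (0.22), KO replicate 1 (0.0723) or KO replicate 2 (0.19). SEMA4B, the most abundant membrane semaphorin per length in control libraries, had 51.1, 42.9 and 44.6 CPM in control and 37.3, 42.0 and 34.8 CPM in KO libraries. All its KO values were below the control values, and the log2 fold change of -0.28 (adjusted p 0.0152, or 0.0877 without KO replicate 3) was under the fold change threshold. SEMA4C, SEMA4F, SEMA6A, SEMA6C and SEMA6D did not pass the test, with log2 fold changes from -0.07 to 0.47, although SEMA6C did without KO replicate 3 (0.66, adjusted p 0.0392). SEMA4A and SEMA5B had at most 5 and 1 counts in a library.

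All 9 plexins, the main receptors of the semaphorins, were tested. Of these, 2 were called higher (22.2%, beside 7.57% of all tested genes) and 1 lower (11.1%, beside 8.39%). The called plexins were all of the A type, although the call of PLXNA4 was not stable, as given below. PLXNA1, a co-receptor that neuropilins recruit for class 3 semaphorins, had 33.7, 30.9 and 30.3 CPM in control and 50.4, 54.1 and 45.1 CPM in KO libraries. It rose with a log2 fold change of 0.66 (standard error 0.084, adjusted p 4.9e-07). PLXNA2, its close relative and a receptor of class 6 semaphorins, had 11.7, 10.5 and 12.6 CPM in control and 6.30, 7.37 and 6.63 CPM in KO libraries. PLXNA2 fell with a log2 fold change of -0.77 (standard error 0.11, adjusted p 4.8e-06), so these plexins changed in opposite directions, each without overlap of the groups. PLXNA4 had 24, 34 and 35 counts in control and 45, 47 and 38 counts in KO libraries (log2 fold change 0.60, SE 0.22, adjusted p 0.0386). It lost the call with DESeq2 (adjusted p 0.168), with no filter on low counts (0.0586) and on leaving out any library except KO replicate 3, when the adjusted p ran from 0.0510 without control replicate 2 to 0.185 without KO replicate 1. PLXNA3 had 29.2 and 26.7 CPM and did not pass the test (log2 fold change -0.13, 95% interval -0.30 to 0.05).

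PLXND1, a receptor of SEMA3E in blood vessels, and PLXNB1, the receptor of SEMA4D, were each higher in all KO than in all control libraries. PLXND1 had 54.4, 41.9 and 47.1 CPM in control and 62.0, 64.8 and 54.7 CPM in KO libraries. Its log2 fold change of 0.34 (standard error 0.088, adjusted p 0.00396) was under the fold change threshold and passed it only without control replicate 1 (0.43) or KO replicate 3 (0.40). PLXNB1 had 20.9, 21.3 and 19.4 CPM in control and 25.9, 25.9 and 22.0 CPM in KO libraries, with a log2 fold change of 0.26 (adjusted p 0.0322 in edgeR, 0.0548 with DESeq2) that was not called. Its edgeR adjusted p was 0.158 without control replicate 3, 0.127 without KO replicate 1 and 0.124 without KO replicate 2. PLXNB2, the most abundant plexin per length, had 153 ± 14.2 and 161 ± 13.6 CPM (SD, n = 3) and a log2 fold change of 0.08 (95% interval -0.08 to 0.23). PLXNB3 had a log2 fold change of 0.02 at 2.61 and 2.64 CPM.

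Of the neuropilins, which bind class 3 semaphorins and vascular endothelial growth factors, NRP1 had 314, 318 and 336 CPM in control and 405, 367 and 362 CPM in KO libraries. The groups did not overlap, and the 1.17-fold difference (log2 fold change 0.23, SE 0.069, adjusted p 0.0134) was under the threshold. The edgeR adjusted p of NRP1 was 0.0583 without control replicate 2 and 0.102 without KO replicate 1. NRP2 had 81.6, 72.1 and 71.0 CPM in control and 80.1, 78.1 and 73.5 CPM in KO libraries, with a log2 fold change of 0.04 and a 95% interval from -0.11 to 0.20. In both groups NRP1 supplied most of the neuropilin level per kilobase of exon, 83.9% in control and 85.5% in KO libraries.

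In the netrin system 1 member was called. NTN4, a netrin of basement membranes that binds laminin, had 56.8, 57.4 and 57.7 CPM in control and 43.6, 41.5 and 46.5 CPM in KO libraries. It fell with a log2 fold change of -0.38 (standard error 0.076, adjusted p 0.000272), just past the fold change threshold, and was under that threshold without KO replicate 2 (-0.34). Of the DCC and UNC5 receptors, UNC5C alone had enough counts to be tested, at 2.11 ± 0.588 CPM in control and 2.52 ± 0.0911 CPM in KO libraries (SD, n = 3; log2 fold change 0.26, 95% interval -0.14 to 0.65). Netrin-1 and its best known receptors were at the limit of detection, with at most 6 counts of NTN1 and of UNC5A, at most 2 of UNC5B, and 0 of DCC and UNC5D in any library. At these depths a count of 0 allows up to 3 counts in a library, counting error only.

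The slit and robo genes that were called were all higher in the libraries labelled KO. SLIT2 (chromosome 4, 20253528 to 20622184), a secreted repellent, had 146, 144 and 146 CPM in control and 238, 218 and 201 CPM in KO libraries. The 3 control values lay close together and the KO values well above them (log2 fold change 0.59, SE 0.072, adjusted p 2.18e-07). SLIT3 (chromosome 5, 168088745 to 168728143) had 28, 34 and 17 counts in control and 95, 107 and 91 counts in KO libraries. SLIT3 rose 3.99-fold, from 1.10 ± 0.383 to 4.42 ± 0.667 CPM (SD, n = 3; log2 fold change 2.0, SE 0.21, adjusted p 9.33e-09), but remained at 1.54% of the summed slit level per length in KO libraries. SLIT1 had 0 counts in all libraries.

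ROBO1 (chromosome 3, 78646389 to 79817148) was the main slit receptor of these cells per kilobase of exon. It had 54.9, 55.6 and 58.4 CPM in control and 94.8, 90.4 and 92.9 CPM in KO libraries. The spread within each group was small against the difference, and the log2 fold change was 0.72 (standard error 0.072, adjusted p 5.75e-09). ROBO3, a receptor of commissural axons, had a log2 fold change of 0.01 (95% interval -0.36 to 0.38) at 2.25 CPM in each group. ROBO4, an endothelial member of the family that lies 2.22 kb from ROBO3 on chromosome 11, was below the filter on low counts. It had 0, 1 and 1 counts in control and 8, 10 and 8 counts in KO libraries, so its values did not overlap. Over the groups this is 2 against 26 counts, a ratio of 14 with a 95% exact counting interval from 3.50 to 122, and without the filter edgeR gave an adjusted p of 0.000107. CDH5, an endothelial cadherin among the markers, had 0.0131 CPM in control and 0.932 CPM in KO libraries, while VWF had 0.178 and 0.258 CPM, CLDN5 had 0.0540 and 0.0415 CPM, and EMCN and TEK had at most 1 and 2 counts in a library, and the part of such cells in the ROBO4 values was not tested. ROBO2 had at most 5 counts.

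**Figure D3:**
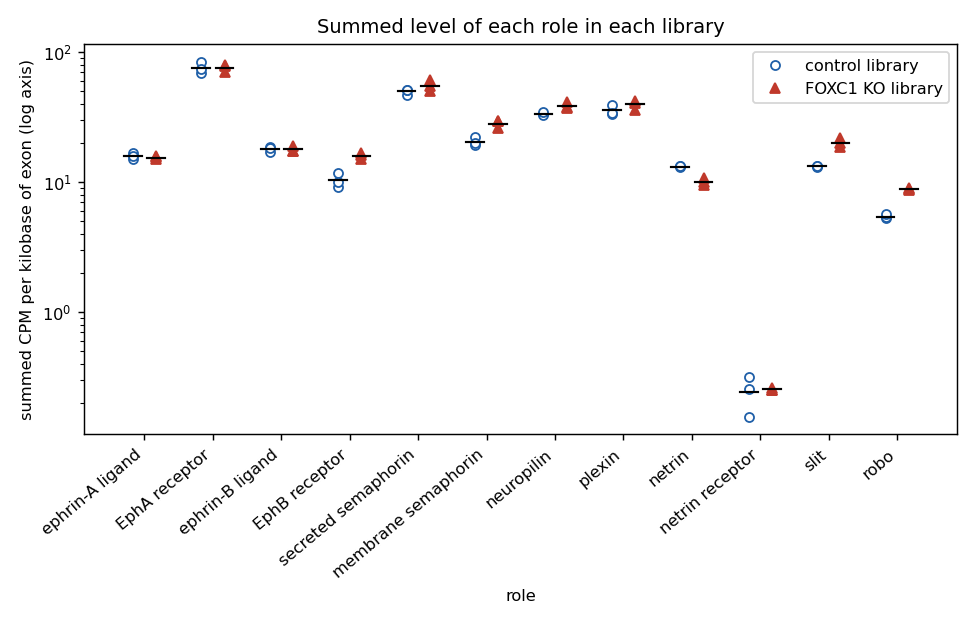
For each role the CPM per kilobase of exon was summed over its members in each library (open circles for control, triangles for libraries labelled FOXC1 KO, lines for means, log axis). The sums do not overlap between the groups for EphB receptors, membrane semaphorins, neuropilins, slits and robos, which are higher in KO libraries, and for netrins, which are lower.

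Summed by role and per kilobase of exon, the EphA receptors and the secreted semaphorins were the most abundant, at 75.9 ± 7.54 and 49.6 ± 2.46 in control and 75.6 ± 4.72 and 55.1 ± 5.16 in KO libraries (CPM per kilobase, SD, n = 3). Their groups overlapped. Robos had the largest ratio of the sums, 1.62 (from 5.43 ± 0.202 to 8.77 ± 0.153), followed by the EphB receptors (1.55), the slits (1.52) and the membrane semaphorins (1.38). For the netrins the ratio was 0.767, set by NTN4. Ephrin-A and ephrin-B ligands had ratios of 0.969 and 0.996 and overlapped between the groups. The netrin receptors among the members, DCC and UNC5A to UNC5D, had the lowest level of all roles, 0.243 ± 0.0798 and 0.255 ± 0.00377. The netrin receptor neogenin (NEO1), which is not a member, had 32.3 CPM in control and 26.5 CPM in KO libraries. Its log2 fold change of -0.28 (edgeR adjusted p 0.0129) was under the fold change threshold. These sums are descriptions, and most are carried by the most abundant member of a role.

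**Figure D4:**
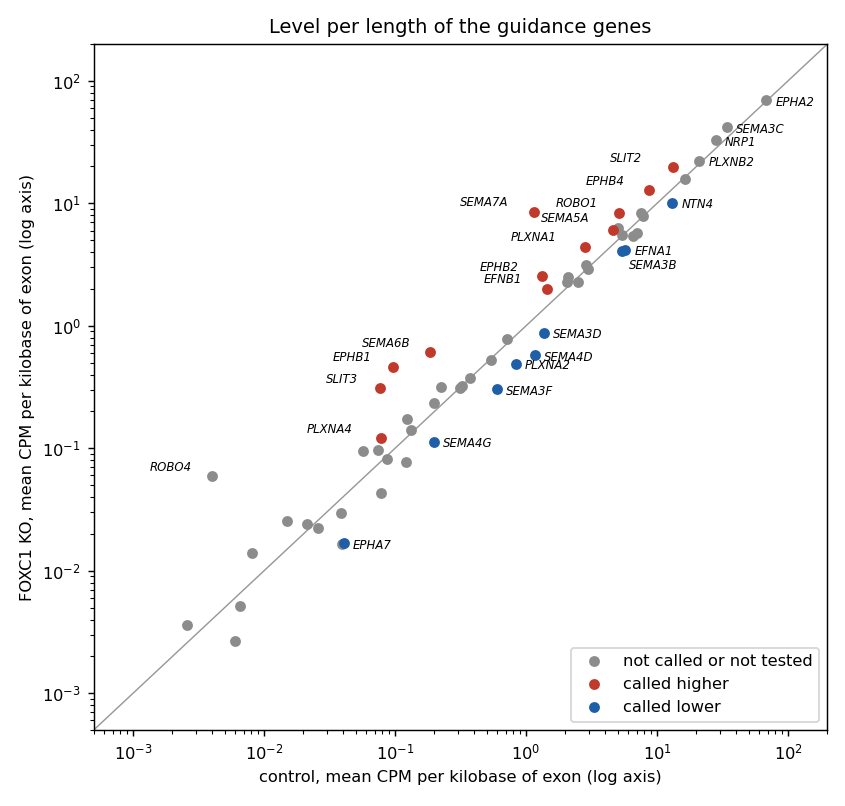
The mean level per length in control libraries is plotted against that in libraries labelled FOXC1 KO for the 61 members with counts in both groups, in CPM per kilobase of exon on log axes, where the line marks equal levels. The most abundant members (EPHA2, SEMA3C, NRP1 and PLXNB2) lie near the line, and SEMA7A and the untested ROBO4 lie farthest above it.

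Genes that act with these ligands and receptors were examined from a list of 86 partners and effectors, such as co-receptors, growth factors that bind neuropilins, and regulators of small GTPases. Among 68 tested genes 32.4% were called, beside 16.0% of all tested genes. In the libraries labelled KO 15 were lower (22.1%, beside 8.39% of all tested genes) and 7 higher (10.3%, beside 7.57%). The median log2 fold change of the 68 genes was -0.053. The growth factor VEGFA, a ligand of NRP1, rose from 95.4 ± 5.35 to 191 ± 4.99 CPM (SD, n = 3; log2 fold change 1.0), whereas its receptor FLT1 fell from 3.45 ± 0.333 to 1.06 ± 0.0710 CPM (-1.70) and the related ligand VEGFB also fell (-0.51). DPYSL3, a member of the collapsin response mediator family that transmits semaphorin signals, rose from 125 ± 8.41 to 236 ± 4.57 CPM (0.91). RGMB, a ligand of the netrin receptor neogenin, and PTK7, a pseudokinase that associates with plexins, were higher as well (0.75 and 0.59). Lower were NGEF, an exchange factor also called ephexin, from 13.7 ± 1.3 to 5.29 ± 0.333 CPM (-1.36), TIAM1 (-0.93), CHN1 (-0.46) and the kinase FYN (-0.58). These 10 genes had the smallest p on the list, with adjusted p under 0.001 in edgeR. Control and KO values were fully separated for each of them, which adds little, since 2443 of all 2497 called genes were separated. Over the list, 37 of the 68 tested genes were separated (54.4%), beside 41.3% of all tested genes. The family of DPYSL3 did not move as a whole. DPYSL2 was lower, from 229 ± 12.6 to 178 ± 5.30 CPM (-0.37, edgeR adjusted p 0.000143), under the fold change threshold. CRMP1 was higher, from 3.29 to 5.10 CPM (0.62, adjusted p 0.00175).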

How the data were processed

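Raw read counts per gene were deposited by the authors, who had aligned paired-end reads to hg19 with STAR and counted them over GENCODE version 19 genes with featureCounts. Tool versions and the settings for strand and for reads matching several genes were not given in the sources used here. All 57820 rows named a gene, and 0 columns belonged to other samples. Gene identifiers were matched without version to GENCODE 44 lifted to GRCh37, the assembly of hg19, for symbols, positions and exon lengths, and 55538 (96.05%) matched.

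Genes passing filterByExpr (15647) were fitted with edgeR 4.0.16 in R 4.3.3 (TMM, robust quasi-likelihood F test, group as the only term). DESeq2 1.42.0, the tool of the study, was an alternative, as were other scalings, filters and thresholds, thinning, a replicate block and leaving out each library. Standard errors came from the F statistic. Levels per length are CPM per kilobase of the exon union in GENCODE 44, whereas reads were counted over version 19 genes. The union can be longer than the transcript expressed, so shares between genes are approximate. The procedure was run on simulated counts with the same dispersion for every gene and no clone or batch effect. That run checks the code and not the error rates in these libraries. Library totals of 18408134 to 25350908 limit precision for genes with few counts, and intervals cover counting error only where stated. Replicate libraries differed by more than sampling noise (chi-square of 2.95 to 10.1 per gene within groups).

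The members and lists were chosen with earlier results of these data known. Genes named are all called members, the uncalled members with an adjusted p under 0.05, up to 2 abundant uncalled members of each role, and the 10 called partners and effectors with the smallest p. Other genes named, ROBO4, CDH5, DPYSL2, CRMP1 and overlapping genes among them, were chosen after their values were seen. No protein sequences were used, and 1 marker of the leukocyte list is not reported here.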

Additional observations from a re-analysis of the deposited data

How the results depend on the processing

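Over 13 alternative fits, 14 of the 21 called members kept their direction and their call wherever they were tested, and 0 members changed direction. In 21 of 266 values a member was no longer called, all from EPHA7, EFNB1, SEMA4G, SEMA5A, NTN4, PLXNA4 and SEMA3B. Members called lower and higher numbered 7 and 11 with DESeq2, and from 6 to 9 and from 9 to 14 on leaving out 1 library at a time. At a fold change over 2 the numbers were 2 lower and 4 higher, beside 321 and 316 of all tested genes, because the threshold itself is stricter. With no fold threshold 2233 of all tested genes were lower and 2372 higher, and 22 partners and effectors were lower and 12 higher. At a fold change over 2, 3 partners and effectors were lower and 2 higher. For FOXC1 the log2 fold change lay between 0.25 and 0.35 on leaving out 1 library at a time, and 0 fits called it. Libraries of equal replicate number showed no pairing (correlations of their deviations -0.040, -0.129 and 0.073). With a replicate block, 9 members were lower and 12 higher, as without it. Genes that did not reach about 0.419 CPM in enough libraries were left out by the filter of the main fit.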
